A study of Homo sapiens with 6 samples.

Results

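The miR-548 family was described by all entries of the deposited miRNA count table whose name begins with hsa-miR-548, both hairpin arms included, which gave 22 of 1247 entries. Small RNA had been sequenced from exosomes, which are small vesicles shed by cells, collected from the established human non-small cell lung cancer line H1299. The cells stably expressed a short hairpin RNA, either a control or one directed at WDR4 (shWDR4), on a genotype labelled wild type, and were held for 48 hours in medium freed of exosomes. WDR4 is the partner that the methyltransferase METTL1 needs to write 7-methylguanosine into RNA, and the series asked about its role in the sorting of miRNAs into exosomes. Whether a line was 1 clone, and which hairpin was used, is not given in the sources used here. Each group had 3 libraries, which the authors joined into 1 count column, so no spread between repeats is known, no test between the groups was possible, and each difference compares the pooled columns. No library of whole cells was used here, so a changed level in the cells and changed sorting cannot be told apart.

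MicroRNAs are short RNAs that guide Argonaute proteins to partly complementary messenger RNAs, mainly through the seed, bases 2 to 8 of the mature strand. The miR-548 family is primate-specific and very large. Its genes arose from MADE1, a short inverted-repeat DNA transposon related to mariner elements, whose transcript folds back on itself into a near-perfect hairpin. The copies lie scattered over the chromosomes, many inside introns. Some of their mature strands are so alike that short reads can match several of them.

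That fold is shown by the hairpin of miR-548m, at chrX:95063141-95063226 on the minus strand, with the mature strand in capitals (RefSeq, GRCh38.p14). In its predicted fold 80 of 86 bases were paired, and the terminal loop had 3 bases.
MIR548M hairpin: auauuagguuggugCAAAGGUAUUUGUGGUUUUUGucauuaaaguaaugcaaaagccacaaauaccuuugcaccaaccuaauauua

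Mature sequences were matched in RefSeq for 11 of the 22 members and are shown 5′ to 3′ with the seed in capitals. The seeds group the members, and the likeness of some strands can bear on the counts below. The other 11 members were miR-548a-5p, miR-548am-5p, miR-548au-5p, miR-548az-5p, miR-548c-5p, miR-548d-5p, miR-548e-3p, miR-548h-3p, miR-548h-5p, miR-548o-5p and miR-548z.
miR-548w: aAAAGUAAcugcgguuuuugccu
miR-548as-5p: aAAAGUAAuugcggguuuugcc
miR-548j-5p: aAAAGUAAuugcggucuuuggu
miR-548aq-5p: gAAAGUAAuugcuguuuuugcc
miR-548k: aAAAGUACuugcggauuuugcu
miR-548l: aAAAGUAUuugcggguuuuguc
miR-548n: cAAAAGUAauuguggauuuugu
miR-548e-5p: cAAAAGCAaucgcgguuuuugc
miR-548m: cAAAGGUAuuugugguuuuug
miR-548ah-3p: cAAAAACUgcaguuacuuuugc
miR-548am-3p: cAAAAACUgcaguuacuuuugu

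The seed AAAGUAA was shared by 4 of these members and AAAAACU by 2, and the remaining 5 had a seed each. No entry outside the family that had a sequence carried any of these seeds. The 11 strands were all different, and over their 55 pairs between 1 and 11 edits separated them, with a median of 6. The closest pair, miR-548ah-3p and miR-548am-3p, differed by C22U alone, with positions counted from the 5′ end and the base of miR-548ah-3p first.

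The 11 placed members lay on 9 chromosomes. In GENCODE release 29, 10 of them lay inside a protein-coding gene, each on the strand of that gene and outside its exons, and only miR-548m lay in no annotated gene but its own. The hosts included SHOC2, a scaffold of RAS signalling, with miR-548e-5p at chr10:110988940-110988961 (plus strand), and PPFIA1, a liprin of focal adhesions, with miR-548k at chr11:70283986-70284007 (plus strand). The DNA repair nuclease gene MRE11 held miR-548l at chr11:94466545-94466566 (minus strand). The gene of the RNA-binding protein IGF2BP2 held miR-548aq-5p at chr3:185767883-185767904 (minus strand).

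Total depth was 1020282 counts in control and 552913 in shWDR4. Levels are given as CPM, counts scaled so that each column sums to 1000000. Where an entry has no counts, up to 3 are still possible, which is 2.94 CPM for control and 5.43 CPM for shWDR4. Intervals are exact 95% intervals that cover counting error only. In shWDR4 the column total was itself shaped by miR-3960, miR-6126 and miR-7704, whose combined share was 0.774% in control and 37.3% in shWDR4. All 5 listed lung line markers had counts in control and 4 of them in shWDR4, but most of these counts were of miR-31-5p alone.

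The miR-548 family was scarce, and lower in shWDR4 exosomes. The 22 members gave 14 distinct pairs of counts, since 13 members fell into 5 sets with identical counts. With each set counted once, the family summed to 148 counts in control, or 145 CPM (123 to 170), and to 22 counts in shWDR4, or 39.8 CPM (24.9 to 60.2). This was a 3.65-fold lower level (2.32 to 5.99). On the log2 scale of shWDR4 over control the family sum stood at -1.87, against a median of -0.23 over the 501 entries of the table with at least 20 counts in both columns together. The distance to that median, -1.64 (-2.35 to -0.98), does not depend on the scaling of the columns. It sets a ratio of summed counts, mostly of scarce members, against a median of single-entry folds. Its interval takes the median as fixed. Entries outside the family within the range of G and C content of the sequenced members, 27.3% to 45.5%, stood lower than the table. The 102 of them with at least 20 counts had a median of -1.40. Of these, 62.7% were at least 2-fold lower and 8.82% at least 2-fold higher.

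Members differed widely in level. The most abundant were miR-548am-5p, miR-548c-5p and miR-548o-5p, each with 66 counts in control and 6 in shWDR4. This is 64.7 CPM (50.03 to 82.3) against 10.9 CPM (3.98 to 23.6), 5.96-fold lower (2.60 to 16.8). No other entry of the table had this pair of counts, so how the authors' counting divided reads among the 3 is uncertain and they stand as 1 value. Together they made up 44.6% of the control and 27.3% of the shWDR4 family sum. Without them the family sum was 2.78-fold lower (1.61 to 5.09).

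These 3 entries were the only members with at least 20 counts, and the next member had 18. All 3 passed the 2-fold size rule as lower and none as higher, against 30.7% lower and 30.1% higher among all 501 such entries. With their shared value the 3 count as 1 observation.

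**Figure D1:**
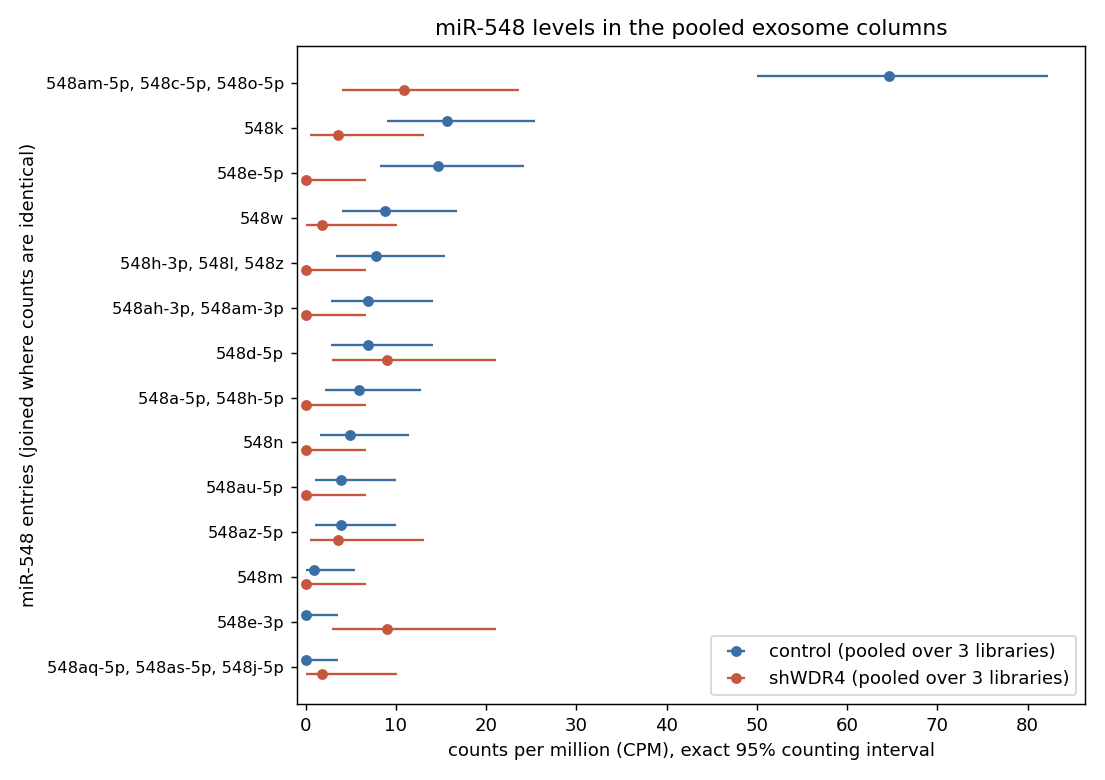
Level of each miR-548 entry in the pooled control (blue) and shWDR4 (red) columns, in CPM on the horizontal axis, with entries of identical counts joined on 1 line and bars for exact 95% counting intervals. The set of miR-548am-5p stands apart at 64.7 CPM in control, and the intervals of the 2 columns do not overlap for this set and for miR-548e-5p alone.

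The remaining members are named to account for the whole family and were outside the rule for named entries unless they share counts. The next most abundant was miR-548k, with 16 counts in control and 2 in shWDR4, a ratio of 4.34 (1.02 to 38.9). Among the entries with a known sequence it alone carried the seed AAAGUAC. Its neighbour in level, miR-548e-5p, had 15 counts in control and 0 in shWDR4. With the 0 set to 3 counts over the group it was 2.71-fold lower, and the exact interval of the fold begins at 1.94. Its partner from the same hairpin, miR-548e-3p, had the reverse pattern, with 0 in control and 5 in shWDR4. It was 3.08-fold higher with the 0 set to 3 counts, and its exact interval begins at 1.69-fold higher. The 2 arms of the miR-548e hairpin thus stood on opposite sides, each with 1 column at 0. The pair 15 and 0 was held by 2 entries of the table and the pair 0 and 5 by 26, so the higher arm rests on few counts.

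Among the members with a known sequence, 4 carried the seed AAAGUAA. Of these miR-548w had 9 counts in control and 1 in shWDR4, a ratio of 4.88 (0.676 to 214). By contrast miR-548aq-5p, miR-548as-5p and miR-548j-5p had 0 in control and 1 in shWDR4, a pair of values held by 96 entries of the table. With that set counted once, the group had 9 and 2 counts, a ratio of 2.44 (0.505 to 23.2), and with every entry counted the ratio was 1.22 (0.340 to 5.42). Both intervals include no difference. The members without a sequence, among them miR-548am-5p, miR-548c-5p and miR-548o-5p, could not be given a seed here. The group may therefore be incomplete, and its ratio holds only for the members named.

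Several members had counts in control alone. The set of miR-548h-3p, miR-548l and miR-548z had 8 counts in control and 0 in shWDR4, and the exact interval of its fold of control over shWDR4 begins at 0.925. The set of miR-548ah-3p and miR-548am-3p, which carry the seed AAAAACU, had 7 and 0, with an interval from 0.781. The set of miR-548a-5p and miR-548h-5p had 6 and 0, with an interval from 0.638. All 3 intervals include no difference. Counts of 5 for miR-548n, 4 for miR-548au-5p and 1 for miR-548m stood against 0 in shWDR4, and their intervals include no difference as well. The pair 8 and 0 was held by 13 entries of the table, 7 and 0 by 27, and 6 and 0 by 15. Equal values this small therefore do not show that reads were shared.

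The members with counts in both columns and the ratios nearest to 1 were miR-548d-5p, with 7 counts in control and 5 in shWDR4, and miR-548az-5p, with 4 and 2. Their ratios of control over shWDR4 were 0.759 (0.207 to 3.03) and 1.08 (0.155 to 11.98), and both intervals include no difference as well as a 2-fold one.

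With a minimum of 5 counts, 17 members were left, of which 6 were at least 2-fold lower and 1 at least 2-fold higher with a 0 set to 3 counts. Over all 900 entries at this minimum, 24.3% were lower and 33.6% higher. Of the 162 other entries within the GC range of the sequenced members, 77 were lower and 16 higher. The 6 lower members were the leading set of 3, miR-548k, miR-548e-5p and miR-548w, or 4 distinct pairs of counts. The higher one was miR-548e-3p. For a 0 the rule is uneven, since 3 counts are 5.43 CPM in shWDR4 and 2.94 CPM in control. A member at 8 and 0 counts reached only 1.45-fold lower, whereas miR-548e-3p at 0 and 5 reached 3.08-fold higher. Members at 8 or fewer counts against 0 could therefore not be called lower. The shares over all entries carry the same tilt.

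**Figure D2:**
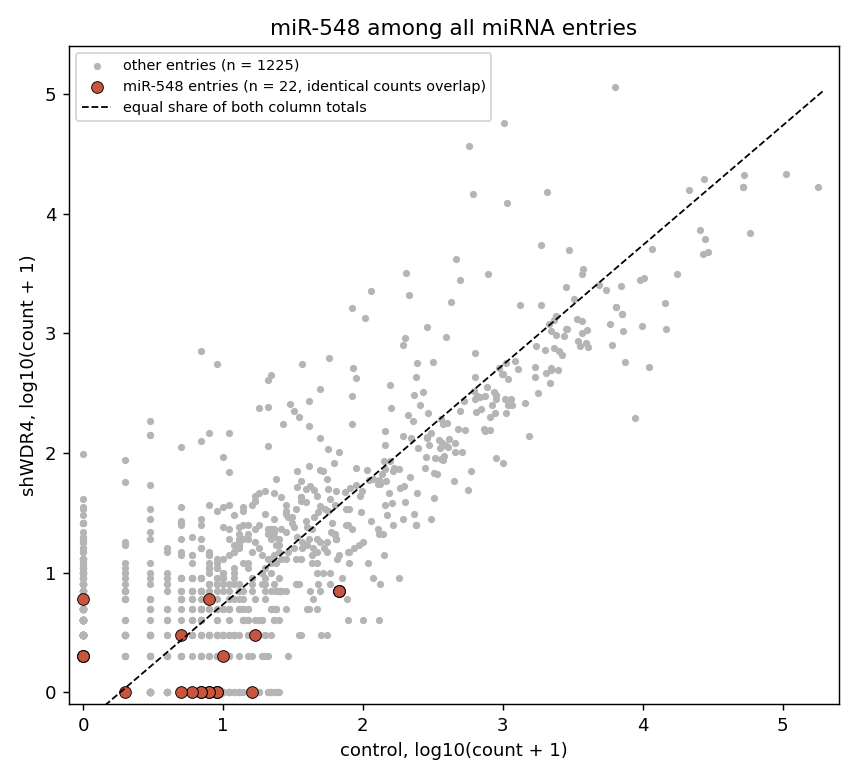
Counts of all 1247 entries in the pooled control (horizontal) and shWDR4 (vertical) columns, both axes as log10(count + 1), with miR-548 entries in red and a dashed line where an entry takes an equal share of both column totals. The miR-548 entries lie in the low corner, and 11 of the 22 lie on the line of 0 counts in shWDR4.

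Most counts of the family were on 5p strands. By name or, for 5 members without an arm in the name, by position in the hairpin, 17 members were 5p strands, 4 were 3p strands, and miR-548z was left unassigned. With each set once within an arm, 5p strands summed to 141 counts in control and 17 in shWDR4, 4.49-fold lower (2.71 to 7.93). The pair of 8 and 0 counts entered the sums of both arms, through miR-548l (5p) and miR-548h-3p. The 3p strands summed to 15 and 5 counts, a ratio of 1.63 (0.562 to 5.72). The interval of the 3p strands includes both no difference and the value of the 5p strands, so the arms were not shown to differ.

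More members had counts in control than in shWDR4, whereas the table as a whole had more entries with counts in shWDR4. Of the 22 members, 18 had counts in control and 11 in shWDR4, with 7 in both columns, 11 only in control and 4 only in shWDR4. Among all entries 14.9% had counts in control alone, and 27.3% were seen in shWDR4 alone. Counted as distinct pairs, 7 of 14 were at 0 in shWDR4 and 2 at 0 in control. Control was sequenced more deeply, and thinned to the shWDR4 total it would be expected to show 17.4 members. Among all entries 862 would be expected in such a control column, and 1061 were seen in shWDR4.

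Other groups of entries were compared for detection, by the number in their names or by GC content. Among miR-1000 to miR-2999, 16.2% of 111 entries were seen in control alone, and shWDR4 alone held 26.1%. The values were 17.1% and 33.3% for the 111 entries of miR-3000 to miR-3999, and 15.9% and 31.7% for the 63 of miR-4251 to miR-4540. For the 217 other entries within the GC range of the members the values were 21.2% and 19.8%, and for the 281 under 50% GC they were 19.6% and 20.3%. No test of the difference from miR-548 was possible with pooled columns, and members that share reads are not independent.

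**Figure D3:**
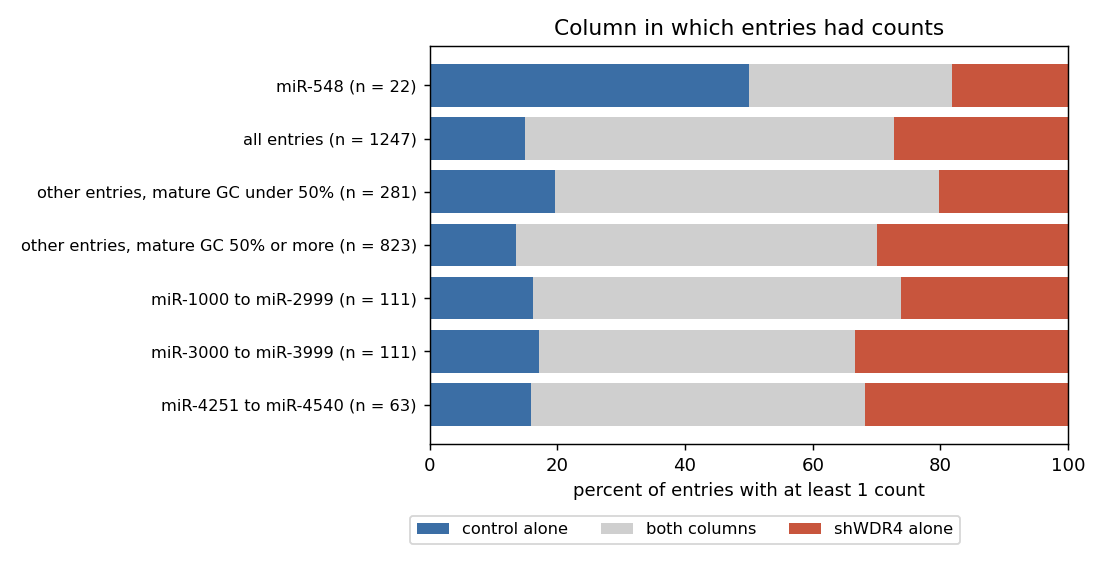
Percent of entries, on the horizontal axis, with counts in control alone (blue), in both columns (grey) or in shWDR4 alone (red), for miR-548 and 6 other groups of entries. The blue part holds 11 of the 22 miR-548 entries and 14.9% of all entries.

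A low GC content was shared by the members whose sequence was known. It ranged from 27.3% in miR-548n to 45.5% in miR-548e-5p, with a median of 36.4%, whereas the median over the 1115 table entries with a sequence was 57.1%. In the rest of the table the difference between the columns moved with this property. Of 45 other entries under 40% GC with at least 20 counts, 33 were at least 2-fold lower in shWDR4 and 3 at least 2-fold higher, with a median log2 fold of -1.66. Of 43 entries at 80% GC or more, 2 were lower and 30 higher, with a median of 1.83. Spearman's rho between GC content and log2 fold was 0.54 over 449 entries and 0.69 over the 184 with at least 200 counts, as a description of entries that share 2 pooled columns.

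Since 11 of the 22 members had a sequence, a check of GC content over the family is void, and its part in the family's lower level was not tested. Other scarce entries were summed too, as a comparison not matched to the members. Every entry was counted, and the split at 50% GC reaches above the highest member value of 45.5%. Scarce entries under 50% GC, with at most 72 counts, the highest value of a member, summed to 1884 counts in control and 678 in shWDR4. This was 1.51-fold lower. Scarce entries at 50% GC or more summed to 4084 and 4181, a ratio of control over shWDR4 of 0.529. Of the former 28.6% had counts only in control and 29.7% only in shWDR4, and of the latter 17.3% and 38.1%.

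**Figure D4:**
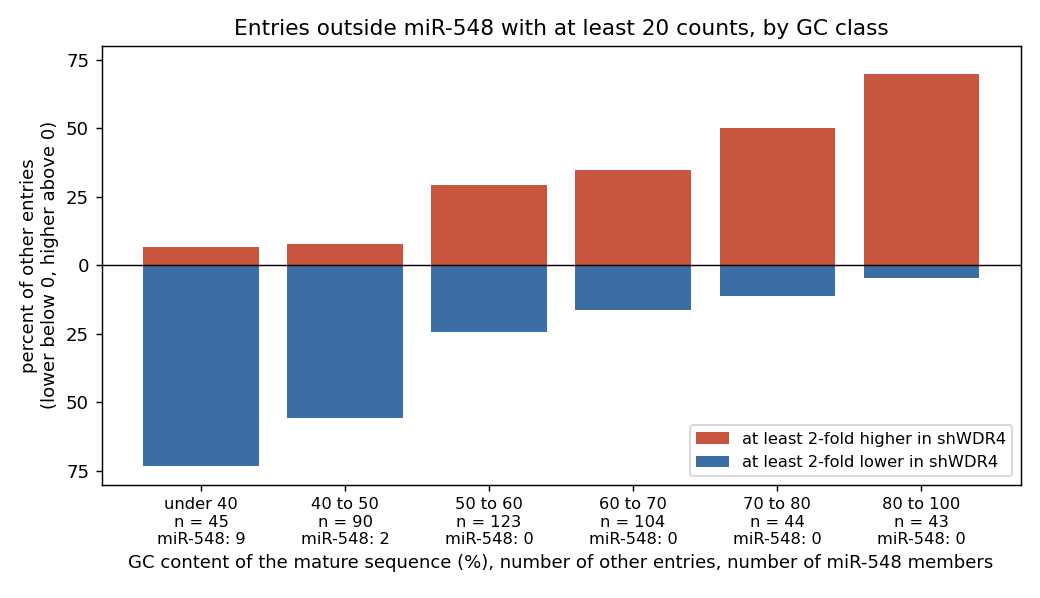
Percent of entries outside miR-548 with at least 20 counts that were at least 2-fold higher (red, above 0) or lower (blue, below 0) in shWDR4, by GC class of the mature sequence, with the number of entries and of miR-548 members in each class on the horizontal axis. The lower share is 73.3% under 40% GC, where 9 of the 11 miR-548 members with a sequence lie, and 4.65% at 80% or more.

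Other miRNAs of transposon origin, listed from background knowledge, were mixed. The closest relative, miR-570-3p, also from a MADE1 element, had 7 counts in control and 0 in shWDR4, with an interval of the fold from 0.781 that includes no difference. No entry for miR-603 was analysed here. Of the 16 entries on the transposon lists 11 had at least 20 counts, and of these 6 were at least 2-fold lower and none higher, against 30.7% lower and 30.1% higher among all 501 such entries. Their median log2 fold was -1.14. With the trimmed mean of M values, the median ratio and the upper quartile as scaling, 5, 6 and 6 were lower and 1, 0 and 0 higher. Without miR-3960 in the column totals 2 of the 11 were lower and 1 higher, against 114 and 172 of the 501. The count thus rests on whether miR-3960 is kept in the totals.

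Among those from LINE2 elements, miR-28-5p was 4.17-fold lower (2.84 to 6.33), miR-151a-5p 2.47-fold (2.41 to 2.54) and miR-151a-3p 2.43-fold (2.21 to 2.69). The other arm of miR-28, miR-28-3p, was 1.18-fold lower (1.09 to 1.29) and miR-421 1.43-fold (1.34 to 1.54). From other DNA transposons, miR-340-5p was 3.70-fold lower (2.40 to 5.95), miR-652-3p 2.36-fold (1.64 to 3.47) and miR-652-5p 1.08-fold (0.552 to 2.23). From MIR elements, miR-378a-3p was 2.21-fold lower (2.03 to 2.41), while miR-345-5p had 20 counts in each column, a ratio of control over shWDR4 of 0.542 (0.277 to 1.06).

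Of the 22 members 4 carried the mark of significance in the authors' deposited table, each as lower in shWDR4. The authors' deposited table had 10.8% of all 1247 entries marked as lower and 15.4% as higher. In the authors' deposited table the set of miR-548am-5p, miR-548c-5p and miR-548o-5p had a normalized log2 fold of control over shWDR4 of 2.58 and a Storey q-value of 5.69e-09, listed 3 times. The fourth mark in the authors' deposited table was miR-548e-5p, with a log2 fold of 4.02 and a q-value of 0.000347, where a 0 had been replaced by 0.5. The authors' deposited table gave miR-548e-3p a log2 fold of -4.21 and a q-value of 0.00252, above their threshold of 0.001. It gave no fold for 5 members. These q-values come from 2 pooled columns and hold no spread between repeats.

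Markers of the lung line and of other cell types were both lower in shWDR4 exosomes. The 5 lung line miRNAs were miR-21-5p, miR-31-5p, miR-205-5p, miR-200c-3p and miR-141-3p. They summed to 11750 counts in control and 3258 in shWDR4, 1.95-fold lower (1.88 to 2.03). Most of this sum was miR-31-5p, with 9631 and 2780 counts, 1.88-fold lower. By contrast miR-205-5p, miR-200c-3p and miR-141-3p were scarce, with 46, 34 and 11 counts in control. Of the 4 lung line miRNAs with at least 20 counts 3 were at least 2-fold lower. The 9 listed miRNAs of blood, endothelium, liver and muscle summed to 12773 counts in control and 1648 in shWDR4, 4.20-fold lower (3.99 to 4.42). Of the 5 with at least 20 counts 4 were at least 2-fold lower, led by the endothelial miR-126-3p with 9954 and 1153 counts. Among all entries with at least 20 counts 30.7% were at least 2-fold lower. The red cell miR-451a had 0 counts in control and 3 in shWDR4. The muscle miR-206 and miR-133a-3p had 3 and 1 in control and 0 in shWDR4. Counts this small do not show presence in 1 column and absence in the other. The part of other cell types in the miR-548 result was not tested.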

How the data were processed

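Exosomal small RNA libraries (QIAseq miRNA kit, per the labels' protocols) were pooled by the authors into 1 column of whole-number counts per group, per the file headers, with 3 libraries each and 6 in all. The submitters' processing notes name Bowtie, SAMtools, edgeR, FastQC and Trim Galore without a role. For the build, multi-matching reads and molecular identifiers, the handling is not given in the sources used here. Beside the counts, the authors deposited a normalized log2 fold of control over shWDR4, in which a 0 is 0.5, and a Storey q-value.

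Counts were scaled to column totals as CPM. Fold intervals were exact binomial intervals conditional on the sum of both counts (SciPy 1.17.1). Amplified reads are not independent molecules. The planned edgeR quasi-likelihood test needed a column per library and was not run. edgeR 4.0.16 gave scale factors for alternatives, and RNAfold 2.7.2 the fold. Interval coverage was checked on simulated counts with counting error alone, for entries with at least 20 counts. That check cannot cover spread between repeats, amplification or shared reads.

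Members and lists were chosen with earlier results of these data known. Named entries are members with at least 20 counts, sets with identical counts, the highest member, and up to 4 entries per list. The GC comparison was added after values were seen. Subsets of the table and 2 enrichment tables were not used.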

Additional observations from a re-analysis of the deposited data

How the results depend on the processing

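The family sum stayed lower in shWDR4 under each alternative run, from 2.30-fold without miR-3960, miR-6126 and miR-7704 in the totals (outside the counting interval of the reported value) to 5.96-fold with members of at least 20 counts only. Counting every entry gave 4.65-fold, and counting once only sets above 0 in both columns, an alternative added after seeing the data, 3.997-fold. The 3p sum ranged from 1.03-fold to 2.38-fold lower. The median log2 fold of the evaluated entries shifted by -0.38 with upper-quartile scaling, 0.16 with the trimmed mean of M values, 0.11 with the median ratio, 0.32 without miR-3960 and 0.66 without the 3 entries.

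Counted as sets, 1 was at least 2-fold lower and 0 higher; counting every entry gave 3 lower, and a minimum of 5 counts or none gave 4 lower and 1 higher. Requiring 3 counts left 5 members in shWDR4 instead of 11. Transposon lists had 2 lower with either reduced total, and 1 higher with those or the trimmed mean. For all entries the reported 154 lower and 151 higher became 201 and 125 with upper-quartile scaling, and 76 and 196 without the 3 entries.

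Sets by identical mature sequence were not run, since 11 members had no sequence here. Leaving out replicates was not possible with pooled columns. No paired analysis was possible because each column joins the 3 libraries of its group. Depth limits most members: 9 of the 11 at 0 in shWDR4 had 5 to 15 control counts.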
